A study of Homo sapiens with 11 samples.

Results

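Cigarette smoke condensate (CSC) was compared with its vehicle, DMSO, after 48 hours of exposure of A549 cells. This comparison holds 5 of the 11 RNA-seq libraries of the series, 3 from cells given CSC and 2 from cells given DMSO (replicates 2 and 3; a replicate 1 of this DMSO group is not analysed here), and it was described across the 12135 genes, of 23608 with a usable estimate, that reached an FPKM of 1 in at least 2 of the 5 libraries. FPKM, the unit of all levels below, scales the fragments of a gene by its transcript length and by the mapped fragments of the library. The members were chosen by the titles of the libraries and by this level alone, with no use of the difference between the groups. A549 is an established line grown from a human lung adenocarcinoma, and all groups are this 1 line. CSC was given at a labelled dose of 20 µM, which is a molar unit although CSC is a mixture. The remaining 6 libraries come from cells kept in DMSO or in CSC for 2 weeks, 3 of each, and were used for the estimate of spread and for 1 comparison near the end.

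CSC is the particulate matter of cigarette smoke taken up in a solvent, and it carries polycyclic aromatic hydrocarbons, nicotine and many oxidants. The aryl hydrocarbon receptor (AHR) binds such aromatic compounds in the cytosol, moves to the nucleus, pairs with ARNT and binds short DNA elements with the core GCGTG, from which it raises transcription of the cytochrome P450 genes CYP1A1 and CYP1B1 and of its own inhibitors AHRR and TIPARP. In lung epithelium, smoke is also known to act on growth factor signalling, on inflammatory mediators and on the response to oxidants, which is driven by NRF2.

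The FPKM of a library summed to 338507 to 360969 over the 5 libraries, and 11742 to 12051 genes reached an FPKM of 1. The depth in reads is unknown, and the width of the deposited bounds put the relative depth of the 5 libraries between 1.00 and 1.13. Epithelial markers (EPCAM, KRT8, KRT18 and CDH1) summed to 1196 to 2220 FPKM and the A549 markers AKR1B10, AKR1C1 and ALDH1A1 to 2014 to 3086. The epithelial sum came mostly from KRT8 and KRT18, while EPCAM stood at 2.59 to 5.31 and CDH1 at 2.51 to 9.88. For comparison, 4 endothelial markers summed to at most 0.04 and 4 markers of alveolar type II cells to 0.424 to 0.971. Markers of fibroblasts (4) summed to 3.87 to 6.68 and those of immune cells (5) to 4.47 to 6.11. No label states whether replicates came from separate cultures, and the p-values then reflect the spread among these libraries alone, which may be technical.

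CSC replicate 3 stood apart from the other 4 libraries. In it 35 genes lay at least 1 log2 unit above all the other 4 libraries, against 1 to 5 genes in each of the others, and 15 lay as far below, against 7 to 13. Of the 35, 15 belonged to the list of the integrated stress response, which holds 34 of the 12135 genes tested. In that response ATF4 induces genes for amino acid supply and for the restart of translation. DDIT3, a transcription factor of that response, stood at 2.47 and 2.91 FPKM in DMSO replicates 2 and 3 and at 2.99, 3.98 and 34.5 in CSC replicates 1, 2 and 3, the order used for every gene below. DDIT4, a stress-induced inhibitor of mTORC1, stood at 59.4 and 71.0 in DMSO and at 62.5, 46.5 and 205 in CSC. Of the 15 low genes, 4 were on the list of cytosolic heat shock genes, which holds 21 of the genes tested. Both lists were drawn up with earlier results of these data known. HSPA8, the constitutive HSP70 chaperone, stood at 564 and 445 in DMSO and at 521, 571 and 135 in CSC, and HSPA1A, the inducible form, which shares reads with its near-identical copy HSPA1B, at 61.1 and 49.7 against 56.5, 58.4 and 3.60. Its correlations with the other libraries (Pearson, log2 values across genes, which are not independent replicates) were 0.965 to 0.972, and those among the other 4 were 0.970 to 0.982. Where leaving out this library changed a call or moved a list's median by over 1.5 times, the value without it is given beside the result.

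In all, 15 genes rose (0.124% of those tested) and 28 fell (0.231%), together 0.354%, with limma's moderated test on log2(FPKM + 0.5) and a Benjamini-Hochberg adjusted p under 0.05. An unadjusted p under 0.05 was reached by 1028 genes (8.47%). The response was small for most of the transcriptome: the median log2 change was 0.00, 1 gene in 100 lay below -0.68 and 1 in 100 above 0.66, and 27 genes (0.222%) had a log2 change of at least 1 and 54 (0.445%) of -1 or less, with no test applied to these counts. Among the called genes 8 of the rises and 14 of the falls were at least 2-fold on the scale of log2(FPKM + 0.5), which understates the change of weakly expressed genes. For each of the 43 the CSC and DMSO libraries did not overlap, as they did not for 22.8% of all tested genes in either direction. In RNA from whole cultures, fewer cells that express a gene and less of its RNA per cell cannot be told apart.

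**Figure D1:**
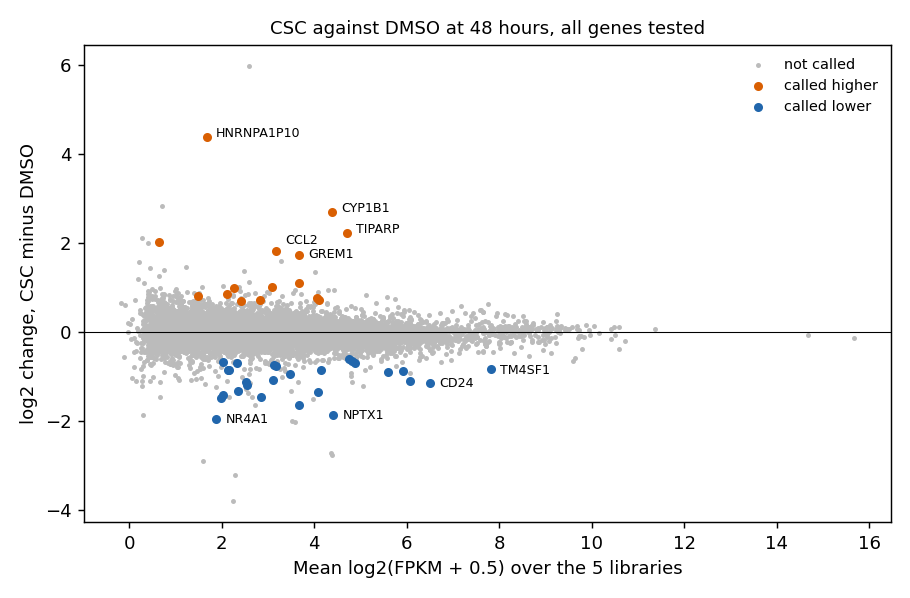
Mean level over the 5 libraries (x axis, log2(FPKM + 0.5)) against the log2 change, CSC minus DMSO at 48 hours (y axis), for the 12135 genes tested apart from SNAR-E, which is listed at 0 in CSC and is not drawn. Orange points are the 15 genes called higher and blue points the other genes called lower. Most genes lie near 0 at every level, and called falls reach the strongly expressed genes TM4SF1 and CD24.

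The calls depended on the small DMSO group. Of the 43 genes, 36 lost the call in at least 1 of the 11 fits that left out 1 library, and for 32 the largest adjusted p over the fits without a 48-hour library came without DMSO replicate 3 and for 10 without DMSO replicate 2. Those that stayed past the threshold in all 11 fits were the rises of CYP1B1, TIPARP, GREM1 and TGFA and the falls of NR4A1, RTN4RL2 and SLC45A4. The counts were 5 higher and 6 lower without DMSO replicate 3, 12 and 10 without DMSO replicate 2, 22 (0.184% of 11969) and 81 (0.677%) without CSC replicate 3, and 9 and 19 without DMSO or CSC replicate 3 of 2 weeks. With only the 5 libraries of 48 hours in the fit, 2 genes were higher, TIPARP and GREM1, and 1 lower, SNAR-E. In that fit CYP1B1, TGFA, NR4A1, RTN4RL2 and SLC45A4 missed the threshold (limma, adjusted p = 0.148, 0.151, 0.0849, 0.0764 and 0.0849).

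Of the genes that AHR is known to induce, TIPARP and CYP1B1 rose. TIPARP, an ADP-ribosyltransferase that modifies AHR and lowers its activity, lies at chr3:156392205-156424557 in hg19, the build of the deposited coordinates. It stood at 11.7 and 8.20 FPKM in DMSO and at 47.2, 45.8 and 50.7 in CSC, a log2 change of 2.23 ± 0.15 (SE; adjusted p = 1.00e-05). The 3 CSC libraries lay within a narrow range, CSC replicate 3 included. CYP1B1, a cytochrome P450 that oxidises aromatic hydrocarbons and steroids (chr2:38294746-38303323), stood at 5.43 and 7.35 in DMSO and at 50.5, 26.0 and 64.8 in CSC, a log2 change of 2.71 ± 0.29 (adjusted p = 7.31e-04). Its CSC libraries differed among themselves by more than those of TIPARP, and all 3 were well above DMSO. CYP1A1, the classical P450 target, was weakly expressed, at 0.103 and 0.0535 in DMSO and 1.88, 0.698 and 3.81 in CSC, and missed the threshold (log2 change 2.00 ± 0.39, adjusted p = 0.0535). AHRR, the AHR repressor, stood at 0.459 and 0.647 against 1.91, 0.867 and 2.20 (0.98 ± 0.27, adjusted p = 0.182).

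Of the 15 AHR-responsive genes measured, 2 were called higher and 0 lower, 11 had a positive and 4 a negative change, and their median was 0.28, against 0.124% called higher and a median of 0.00 over all genes. Without CSC replicate 3 the median of the list was 0.13. The median relative to the DMSO mean was 0.27, 0.04 and 0.68 in CSC replicates 1, 2 and 3, so the list as a whole was highest in CSC replicate 3. AHR itself stood at 10.6 and 12.9 in DMSO and 7.92, 8.01 and 9.33 in CSC, with a log2 change of -0.46 ± 0.12 (adjusted p = 0.174, not called) and no overlap between the groups. Of the 28 NRF2 targets and redox enzymes measured, 0 were called by limma in either direction, against 0.354% of all genes. An unadjusted p under 0.05 was reached by 0 of them, against 8.47% of all genes. NQO1, a quinone reductase, had a log2 change of 0.13 ± 0.15 and HMOX1, which breaks down heme, of -0.24 ± 0.16, and for both the groups overlapped. In DMSO replicates 2 and 3 NQO1 already stood at 270 and 297 FPKM, HMOX1 at 31.5 and 24.5, and AKR1B10, also on this list, at 746 and 1050. Whether such levels in DMSO limit a further rise was not tested.

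For the called genes that stayed past the threshold in all 11 fits, the 250 bases before the RefSeq transcription starts (GRCh38.p14, which differs from the hg19 build of the files) are shown for the genes that the promoter table holds, which are TIPARP, GREM1, TGFA and NR4A1. CYP1B1 and RTN4RL2 have no entry in that table, and SLC45A4 is not shown. They were taken for their calls, whether or not they hold a motif. The sequences run 5′ to 3′ toward the start and the first 2 starts from upstream are given for each gene, with capitals marking GCGTG, the AHR core, or its complement CACGC on either strand. The windows are chr3:156674340-156674589 and chr3:156674676-156674925 on the plus strand for TIPARP, chr15:32717754-32718003 and chr15:32718234-32718483 on the plus strand for GREM1, chr2:70553827-70554076 and chr2:70553447-70553696 on the minus strand for TGFA, and chr12:52022582-52022831 and chr12:52037465-52037714 on the plus strand for NR4A1.
TIPARP, start 1: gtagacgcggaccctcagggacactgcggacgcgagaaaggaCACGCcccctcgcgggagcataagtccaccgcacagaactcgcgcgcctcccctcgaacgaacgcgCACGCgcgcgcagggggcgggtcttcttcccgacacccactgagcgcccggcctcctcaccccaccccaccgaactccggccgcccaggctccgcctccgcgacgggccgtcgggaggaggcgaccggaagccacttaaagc
TIPARP, start 2: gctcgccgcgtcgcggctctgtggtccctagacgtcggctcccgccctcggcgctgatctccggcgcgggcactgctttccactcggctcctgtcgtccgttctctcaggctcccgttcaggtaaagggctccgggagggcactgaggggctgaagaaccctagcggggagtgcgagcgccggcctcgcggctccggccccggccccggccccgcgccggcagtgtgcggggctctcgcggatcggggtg
GREM1, start 1: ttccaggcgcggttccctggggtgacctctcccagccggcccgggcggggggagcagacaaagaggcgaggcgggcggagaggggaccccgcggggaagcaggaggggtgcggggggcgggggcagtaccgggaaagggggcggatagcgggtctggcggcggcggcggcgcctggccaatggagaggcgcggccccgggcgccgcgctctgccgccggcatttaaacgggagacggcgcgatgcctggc
GREM1, start 2: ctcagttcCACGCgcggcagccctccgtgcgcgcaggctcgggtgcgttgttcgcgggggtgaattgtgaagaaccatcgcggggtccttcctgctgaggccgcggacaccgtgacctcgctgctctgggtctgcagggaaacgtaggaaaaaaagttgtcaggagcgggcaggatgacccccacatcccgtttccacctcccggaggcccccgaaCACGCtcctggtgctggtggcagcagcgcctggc
TGFA, start 1: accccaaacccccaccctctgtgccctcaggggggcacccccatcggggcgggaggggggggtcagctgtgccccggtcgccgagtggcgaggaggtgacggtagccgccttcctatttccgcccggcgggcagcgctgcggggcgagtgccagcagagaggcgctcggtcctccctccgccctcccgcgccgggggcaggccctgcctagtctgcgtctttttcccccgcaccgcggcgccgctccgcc
TGFA, start 2: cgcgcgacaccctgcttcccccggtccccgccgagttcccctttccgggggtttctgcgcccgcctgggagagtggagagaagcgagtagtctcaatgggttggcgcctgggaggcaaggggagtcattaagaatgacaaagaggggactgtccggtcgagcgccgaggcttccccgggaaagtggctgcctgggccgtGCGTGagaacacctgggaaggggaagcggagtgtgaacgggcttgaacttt
NR4A1, start 1: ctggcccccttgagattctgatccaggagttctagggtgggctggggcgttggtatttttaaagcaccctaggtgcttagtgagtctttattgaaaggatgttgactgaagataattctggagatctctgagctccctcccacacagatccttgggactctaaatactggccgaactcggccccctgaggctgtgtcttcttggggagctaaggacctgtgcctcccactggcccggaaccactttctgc
NR4A1, start 2: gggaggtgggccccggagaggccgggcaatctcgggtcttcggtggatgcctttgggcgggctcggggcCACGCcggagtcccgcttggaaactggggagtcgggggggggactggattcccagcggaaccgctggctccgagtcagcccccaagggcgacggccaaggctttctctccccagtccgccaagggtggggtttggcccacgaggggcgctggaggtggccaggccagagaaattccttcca

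In these windows GCGTG occurred 2 times before TIPARP start 1, 2 times before GREM1 start 2, and 1 time each before TGFA start 2 and NR4A1 start 2, and 0 times in the other windows shown and before TIPARP start 3. The core is a common word in promoters. It was found before at least 1 start of 6 of the 10 called-higher genes in the table (60.0%) and 10 of the 20 called-lower genes (50.0%), against 54.7% of all 8824 tested genes in the table, and these shares lie near that background. TGACGTCA, the cyclic AMP response element, was found for 0 of the 10 and 0 of the 20, against 3.54% of all, and TGANTCA, the AP-1 site, for 2 (20.0%) and 1, against 5.71%. A loose NF-kappaB pattern was found for 8 (80.0%) and 16 (80.0%), against 77.4%. Each motif was searched on both strands, a match was counted where it overlapped another, and a match is a description of letters, not of binding.

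Of the other rises, GREM1, TGFA and CCL2 encode secreted proteins. GREM1, which encodes gremlin 1, a secreted protein that binds and blocks bone morphogenetic proteins (chr15:33010205-33026870), stood at 6.01 and 5.39 FPKM in DMSO and at 18.5, 18.2 and 23.5 in CSC. Its log2 change of 1.72 ± 0.13 (adjusted p = 2.54e-05) had the smallest error relative to its size after TIPARP among the rises. TGFA, a ligand of the EGF receptor (chr2:70674412-70781147), stood at 2.59 and 2.83 against 5.70, 6.28 and 5.56 (0.98 ± 0.12, adjusted p = 0.00329), again with CSC libraries close to each other. CCL2, the chemokine that draws monocytes (chr17:32582296-32584220), stood at 5.94 and 2.27 against 12.8, 16.6 and 14.5 (1.83 ± 0.29, adjusted p = 0.0156). The DMSO libraries of CCL2 differed from each other by more than the CSC libraries did, and without DMSO replicate 3 its adjusted p was 0.130.

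ALDH1A3, TMEM156 and HIPK2 were further rises. ALDH1A3, which oxidises retinaldehyde to retinoic acid (chr15:101420009-101456830), stood at 5.75 and 4.39 against 11.1, 11.2 and 9.95 (1.02 ± 0.13, adjusted p = 0.00538). TMEM156, a membrane protein gene, stood at 6.60 and 8.58 against 14.0, 14.3 and 23.5 (1.10 ± 0.20, adjusted p = 0.0404), with the highest level in CSC replicate 3. Its call was kept in 4 of the 11 fits without 1 library. HIPK2, a nuclear kinase of the DNA damage response, stood at 11 and 12.3 against 20.6, 21.1 and 18.4 (0.76 ± 0.12, adjusted p = 0.0145). These 3 genes all rose by between 1.69-fold and 2.15-fold, and each CSC library was above both DMSO libraries.

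Further rises were below 2-fold. UBASH3B, a phosphatase that acts on tyrosine kinases, stood at 13.6 and 11.2 against 20.7, 21.5 and 19.5 (log2 change 0.71). STK32B, a serine/threonine kinase, stood at 4.99 and 4.63 against 7.95, 7.63 and 9.28 (0.72), and SIPA1L2, a regulator of the small GTPase Rap, at 3.49 and 3.53 against 5.87, 5.22 and 7.06 (0.70). In each of these the lowest CSC library was above the higher DMSO library. PADI2, which converts arginine in proteins to citrulline, stood at 1.43 and 1.62 against 3.57, 2.78 and 2.83 (0.81), and INPP1, an inositol phosphate phosphatase, at 2.37 and 2.71 against 3.84, 5.55 and 5.82 (0.86). Their adjusted p-values were 0.0188, 0.0245, 0.0440, 0.0468 and 0.0482 in the order named (limma, Benjamini-Hochberg), and INPP1 missed the threshold without CSC replicate 3 (0.0627). The call was kept in 8 of the 11 fits without 1 library for UBASH3B and STK32B, in 3 for SIPA1L2, in 2 for PADI2 and in 1 for INPP1.

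HNRNPA1P10 and EIF3CL also passed, but are uncertain, since a pseudogene and a near-identical gene copy share reads with HNRNPA1 and EIF3C. HNRNPA1P10 stood at 0.0248 and 0.00908 in DMSO and 35.7, 7.36 and 3.93 in CSC, and EIF3CL at 0.404 and 0.00200 against 3.67, 2.33 and 1.24. Both lost the call without DMSO replicate 3 (adjusted p = 0.245 and 0.267).

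**Figure D2:**
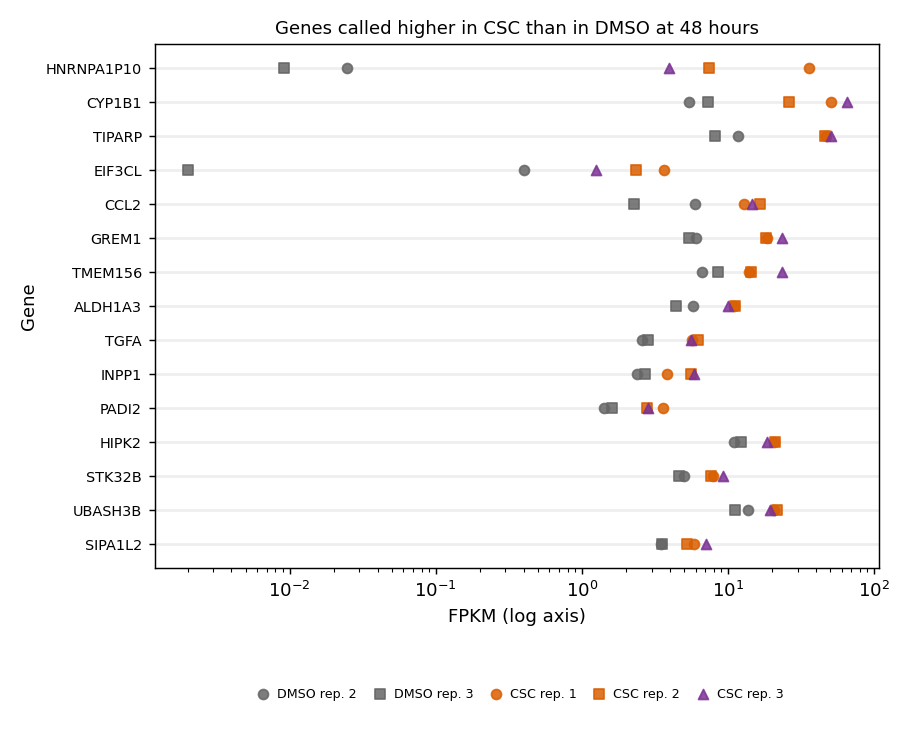
FPKM (x axis, log scale) of the 15 genes called higher in CSC than in DMSO at 48 hours, with 1 point for each library; grey marks DMSO replicates 2 and 3, orange CSC replicates 1 and 2, and purple triangles CSC replicate 3. For each gene every CSC library lies to the right of both DMSO libraries, and TIPARP, TGFA and ALDH1A3 show the tightest CSC groups relative to the shift.

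NR4A1 led the falls among genes that encode proteins. Its product is an orphan nuclear receptor that is switched on within minutes by growth signals and cyclic AMP (chr12:52416616-52453291). It stood at 6.47 and 9.49 FPKM in DMSO and at 1.66, 1.28 and 2.09 in CSC, a log2 change of -1.96 ± 0.19 (adjusted p = 4.89e-04). PDE3A, a phosphodiesterase that breaks down cyclic AMP and is itself a target of that pathway in many cells (chr12:20522179-20837041), stood at 6.24 and 7.64 against 2.16, 1.43 and 3.07 (-1.49 ± 0.21, adjusted p = 0.00887). LINC00473, a long non-coding RNA known to be induced by cyclic AMP through CREB and its coactivators (chr6:166337536-166401527), stood at 12.3 and 13.9 against 5.68, 5.19 and 7.07 (-1.08 ± 0.13, adjusted p = 0.00265). CSC replicate 3 was the highest of the CSC libraries for all 3, and still lay below both DMSO libraries.

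The fixed list of cyclic AMP and CREB genes, which holds NR4A1 and PDE3A but not LINC00473, had 26 measured members. Of these 0 were called higher and 2 lower, against 15 (0.124%) and 28 (0.231%) of all genes. In the list 3 had a positive and 23 a negative change, against 6097 and 6038 of all genes. The list's median was -0.14, against 0.00 over all genes. The list's median relative to DMSO was -0.15, -0.19 and -0.12 in the 3 CSC libraries, so no library stood out. SIK1, a kinase that is induced by CREB and restrains it, stood at 76.6 and 71.3 against 39.6, 38.8 and 53.8 and just missed the threshold (-0.76 ± 0.15, adjusted p = 0.0510). The medians of this list and of all genes are a description, and the list was drawn up with earlier results of these data known.

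IGFBP3, NPTX1, INSL4 and C1QTNF6, which encode secreted proteins, were among the other falls. IGFBP3, which binds insulin-like growth factors in the extracellular space (chr7:45951844-45960871), stood at 123 and 92.6 FPKM against 44.5, 51.0 and 53.4 (-1.10 ± 0.16, adjusted p = 0.00887). NPTX1, a secreted neuronal pentraxin, stood at 64.9 and 32.3 against 9.99, 20.0 and 8.97 (-1.87 ± 0.30, adjusted p = 0.0188), and INSL4, a relaxin-family hormone of the placenta, at 16.9 and 36.0 against 11.4, 5.02 and 7.57 (-1.64 ± 0.31, adjusted p = 0.0465). In both genes the DMSO libraries differed from each other by a larger ratio than the nearer of them differed from the closest CSC library. NPTX1 lost the call without DMSO replicate 2 (adjusted p = 0.172) and without CSC replicate 1 (0.0657), and INSL4 in 8 of the 11 fits, with its largest adjusted p of 0.382 without DMSO replicate 3. C1QTNF6, a secreted relative of the complement protein C1q, stood at 8.14 and 10.3 against 4.72, 2.80 and 3.78 (-1.21 ± 0.19, adjusted p = 0.0156).

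Among the called genes that encode membrane proteins, RTN4RL2, SLC45A4, SLC7A7, SUSD2 and CD24 fell. RTN4RL2, a Nogo receptor relative (chr11:57228339-57244384), stood at 29.3 and 29.1 against 13.2, 10.1 and 10.2 (-1.36 ± 0.13, adjusted p = 4.01e-04). SLC45A4, of a family of sugar transporters, stood at 7.52 and 9.39 against 3.32, 2.78 and 3.04 (-1.33 ± 0.14, adjusted p = 5.35e-04). Both had CSC libraries in a narrow band far below DMSO. SLC7A7, a subunit of a transporter for basic amino acids, stood at 5.90 and 7.98 against 2.16, 1.44 and 3.55 (-1.42 ± 0.27, adjusted p = 0.0467), and SUSD2, a membrane protein with a sushi domain, at 10.5 and 15.5 against 3.76, 3.3 and 6.44 (-1.46 ± 0.23, adjusted p = 0.0156). SLC7A7 kept the call in only 2 of the 11 fits without 1 library, and SUSD2 in 9. CD24, a mucin-like surface protein whose near-identical copies make its estimate uncertain, stood at 147 and 144 against 79.6, 71.2 and 49.7 (-1.15 ± 0.18).

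TGM2, RDX, SPARC, PRICKLE2 and ETS2 fell by less than 2-fold. TGM2, which crosslinks proteins and is a known target of retinoic acid (chr20:36756864-36793700), stood at 74.5 and 65.9 against 34.5, 42.6 and 34.4 (-0.91 ± 0.13, adjusted p = 0.0107). RDX, radixin, which ties actin to the membrane (chr11:110045605-110167437), stood at 83.0 and 91.4 against 48.6, 46.4 and 46.5 (-0.88 ± 0.12, adjusted p = 0.00635). SPARC, a matrix glycoprotein, stood at 5.88 and 5.87 against 2.72, 2.79 and 3.67 (-0.85 ± 0.16, adjusted p = 0.0482). For these the CSC range was well clear of DMSO, although SPARC kept the call in only 2 of the 11 fits. PRICKLE2, a planar polarity gene, fell by 0.85 on the log2 scale, and ETS2, a transcription factor downstream of ERK, by 0.85, from 29.0 and 21.5 to 13.8, 14.2 and 12.9 FPKM.

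BAAT, which joins bile acids to amino acids, stood at 15.4 and 16.7 against 9.10, 6.27 and 9.26 (-0.95), and SAMD11, a protein with a sterile alpha motif, at 8.24 and 9.30 against 3.51, 2.91 and 5.04 (-1.13). The 8 smallest falls were between -0.84 and -0.61 and belong to TM4SF1, GATSL1, FZD8, ST6GAL2, ZC3H12A, UPK3B, MYO10 and PEG10, of which all but FZD8 lie outside the rule for named genes and are named after their values were seen. TM4SF1, a membrane protein of migrating cells and the most abundant of all called genes, stood at 299 and 345 against 184, 171 and 181. FZD8, a Wnt receptor, stood at 11.2 and 11.6 against 6.21, 6.03 and 7.80, and kept the call in 2 of the 11 fits without 1 library. PEG10 kept it in 1 of the 11 and missed the threshold without CSC replicate 3 (limma, adjusted p = 0.0587). SNAR-E, a small RNA of a family of near-identical genes, had 22.5 and 20.6 FPKM in DMSO and was listed at 0 in all 3 CSC libraries and in all 6 libraries of 2 weeks, so no fold is given and an FPKM of 0 may be a failed estimate.

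**Figure D3:**
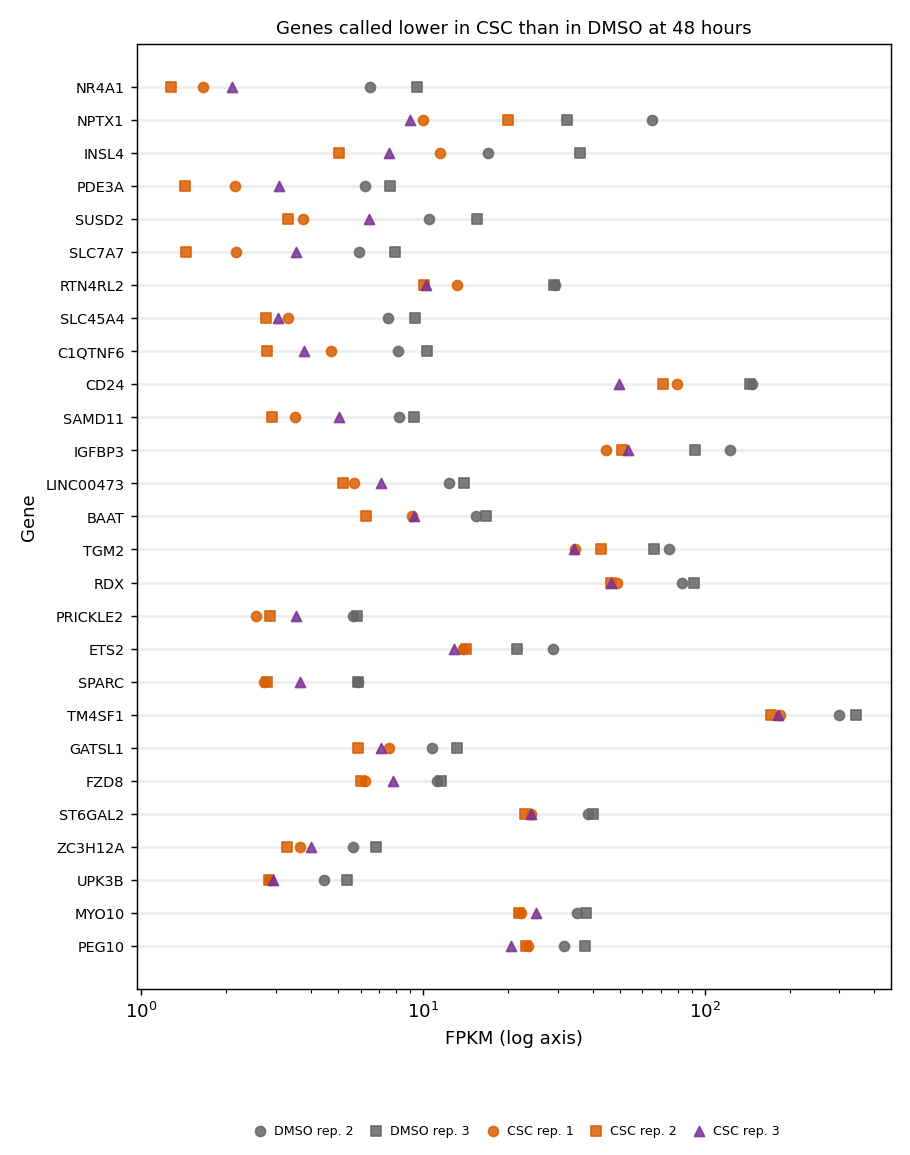
FPKM (x axis, log scale) of 27 of the 28 genes called lower in CSC than in DMSO at 48 hours, with 1 point for each library and colours as in the plot of rises; SNAR-E, listed at 0 in CSC, is left out. Every CSC library lies to the left of both DMSO libraries, with the widest DMSO groups in NPTX1 and INSL4 and the tightest in RTN4RL2 and SPARC.

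Of the 43 called genes 12 belonged to at least 1 of the 47 gene lists, and 31 (9 rises and 22 falls) to none. The lists together held 969 of the 12135 genes tested, and they were drawn up with earlier results of these data known. CSC replicate 3 was the CSC library farthest from DMSO in 7 of the 15 rises and 5 of the 28 falls. Over all genes tested, 6097 changes were positive and 6038 negative, and 0.124% were called higher and 0.231% lower. Some lists leaned to 1 side in all 3 CSC libraries. The 22 chaperones and unfolded-protein-response genes of the endoplasmic reticulum had 0 calls by limma, 0 genes at an unadjusted p under 0.05, 3 positive and 19 negative changes and a median of -0.20, with library medians of -0.22, -0.25 and -0.13, and in 50% of them the groups did not overlap, against 22.8% of all genes. CALR, calreticulin, stood at 244 and 235 against 202, 196 and 180 (-0.32 ± 0.15, adjusted p = 0.609). The 24 Wnt pathway genes had 1 call, FZD8, lower, against 0.231% of all genes. They had 5 positive and 19 negative changes and a median of -0.23, with library medians of -0.21, -0.38 and -0.12.

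Among the 37 BMP and TGF-beta pathway genes GREM1 was the single call, a rise, against 0.124% of all genes called higher. Of the changes 10 were positive and 27 negative, with a median of -0.17. BMP6, a bone morphogenetic protein, stood at 3.49 and 6.0 against 1.65, 1.34 and 2.41 (-1.17 ± 0.24, adjusted p = 0.0597), and TGFBR1, a TGF-beta receptor, at 32.0 and 27.3 against 18.9, 19.8 and 19.4 (-0.60 ± 0.13, adjusted p = 0.0675). In the 15 genes of the insulin-like growth factor axis 1 was called lower, IGFBP3, against 0.231% of all genes. In this axis 5 changes were positive and 10 negative, with a median of -0.23. Without CSC replicate 3 the median of that axis was -0.35. Its library medians were -0.24, -0.46 and -0.01, so CSC replicate 3 did not share the lower level. The BMP and TGF-beta list behaved alike, with -0.22, -0.28 and -0.03.

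Of 13 chemokines and cytokines measured, 2 were called higher (CCL2 and TGFA), against 0.124% of all genes, and 0 lower, and 9 changes were positive and 4 negative. The median of 0.46 came with library medians of 0.27, 0.12 and 0.92, and it was 0.27 without CSC replicate 3. Of the 4 members with negative changes, IL11, CXCL5 and IL18 had CSC libraries that were all below DMSO, and none of them was called. IL11, a cytokine of the IL6 family, stood at 29.5 and 12.8 in DMSO and 5.4, 11 and 10.8 in CSC (-1.13 ± 0.31, adjusted p = 0.198). Of 23 NF-kappaB subunits and feedback genes 0 were called by limma and 7 had an unadjusted p under 0.05, against 8.47% of all genes, 17 changes were positive and 6 negative, and the median was 0.18, with library medians of 0.07, 0.26 and 0.25. BIRC3, an inhibitor of apoptosis induced by NF-kappaB, stood at 5.61 and 4.32 against 7.84, 9.26 and 12 (0.89 ± 0.17, adjusted p = 0.0533), and RELB, a subunit, at 6.48 and 4.09 against 8.90, 9.46 and 11.4 (0.87 ± 0.19, adjusted p = 0.0744). In both genes each CSC library was above each DMSO library. The retinoic acid list held a called rise, ALDH1A3, and a called fall, TGM2, among 17 measured genes, against 0.124% called higher and 0.231% lower over all genes. Its median was 0.03, and -0.01 without CSC replicate 3.

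Other lists moved with CSC replicate 3. The 34 genes of ATF4 and the integrated stress response had 0 calls by limma, 5 genes at an unadjusted p under 0.05 (8.47% of all genes) and a median of 0.36, with library medians of -0.05, 0.07 and 1.05, and without CSC replicate 3 the median was 0.02. The 21 cytosolic heat shock genes had library medians of 0.04, 0.08 and -0.63, and the 42 genes of DNA replication and mitosis -0.01, 0.00 and -0.42. Without CSC replicate 3 their medians were 0.05 and -0.02, in place of -0.19 and -0.15 with it. The 20 immediate early genes had 0 genes called higher and 1 lower, NR4A1, against 0.124% and 0.231% of all genes. Their library medians were -0.06, 0.05 and 0.65, and their median of 0.25 was -0.04 without CSC replicate 3. Whether the state of that library has a part in the levels of single genes named here was not tested.

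**Figure D4:**
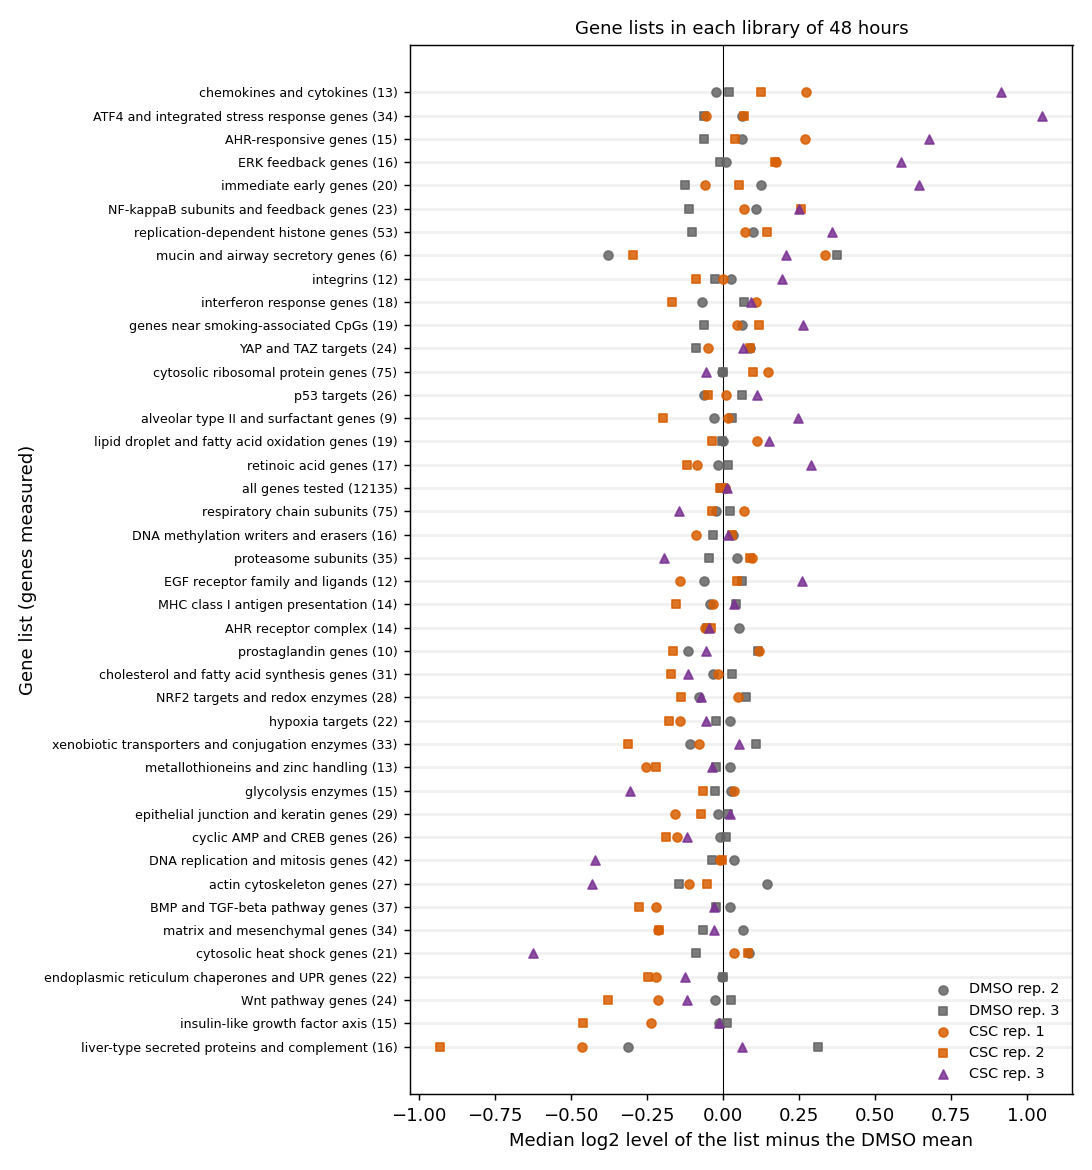
Median log2 level of each gene list in each library of 48 hours minus the mean of both DMSO libraries (x axis, log2 units), with the number of measured genes in brackets and colours as in the plot of rises. CSC replicate 3 lies far from CSC replicates 1 and 2 in the lists of ATF4, cytosolic heat shock, and replication genes, while the 3 CSC libraries lie together below 0 in the cyclic AMP and endoplasmic reticulum lists.

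Leaving out CSC replicate 3 left 14 of the 15 rises and 27 of the 28 falls past the threshold and added 8 rises and 54 falls. Of the added genes, which were picked by this fit, 4 rises and 33 falls were called in the same direction at 2 weeks. Over all 12135 genes, 3.05% were called higher and 2.32% lower at 2 weeks. The libraries of 2 weeks also gave part of the spread behind the choice, so these counts are a description. The largest added falls were those of FGA, a fibrinogen chain made by liver cells, SMOC1, a matrix-associated calcium-binding protein, CPS1, which starts the urea cycle, and SLC2A3, a glucose transporter. CPS1 stood at 14.5 and 25.3 against 6.59, 4.14 and 13.8, and SLC2A3 at 8.90 and 8.62 against 2.68, 2.77 and 6.13. NTRK3, the receptor of neurotrophin 3, stood at 38.6 and 51.9 against 15.8, 16.5 and 31.6. In all 3 CSC replicate 3 lay between the other CSC libraries and DMSO. The added rises included PLIN2, a coat protein of lipid droplets, at 5.51 and 4.54 against 8.85, 7.90 and 7.32, and NPAS2, a clock transcription factor, at 12.4 and 11.6 against 18.8, 18.6 and 16.2. SIK1, BMP6, SOX9 and LBH also passed the threshold in this fit (adjusted p = 0.00378, 0.0159, 0.0224 and 0.0129). The genes of this paragraph that no other passage holds were named after their values were seen.

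Genes that had separate groups and a mean of 5 FPKM or more were also ranked where they missed the threshold. The largest positive changes were those of STC2, DDIT3 and FOSL1. STC2, a secreted glycoprotein induced by ATF4, stood at 5.38 and 3.80 against 7.27, 10.1 and 42.0 (1.6 ± 0.50, adjusted p = 0.283), and without CSC replicate 3 its log2 change was 0.85 (adjusted p = 0.0776). FOSL1, an AP-1 subunit, stood at 14.7 and 5.14 against 22.1, 34.0 and 16.3 (1.35 ± 0.38, adjusted p = 0.210), with CSC replicate 3 the lowest CSC library. JUN, its partner, stood at 17.4 and 7.20 against 18.0, 23.0 and 23.9 (0.91 ± 0.28, adjusted p = 0.268). In both AP-1 genes DMSO replicate 2 was close to the CSC range and DMSO replicate 3 far below it. Of the negative changes SGK1, a kinase of salt and stress signalling, stood at 10.2 and 8.77 against 3.56, 6.34 and 2.70 (-1.15 ± 0.24, adjusted p = 0.0604), and SOX9, a transcription factor of lung epithelial progenitors, at 7.79 and 7.79 against 4.19, 4.63 and 2.34 (-1.02 ± 0.21, adjusted p = 0.0586). LBH, a transcriptional cofactor, stood at 49.3 and 32.6 against 18.0, 19.8 and 25.7 (-0.92 ± 0.18, adjusted p = 0.0579).

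The genes called at 48 hours were then read in the 6 libraries of 2 weeks, whose groups hold none of the 48-hour libraries. The 2-week libraries also entered the estimate of spread that chose these genes, so their calls at 2 weeks are a description and not independent support. At 2 weeks 370 genes were called higher (3.05%) and 282 lower (2.32%), 5.37% in all, and the groups did not overlap for 20.4% of genes in the higher and 9.61% in the lower direction. Of the 43 genes, 40 had the same sign at 2 weeks, against 64.0% of all genes, and 34 were called in the same direction, 12 of the 15 rises and 22 of the 28 falls. For 13 rises and 24 falls the groups of 2 weeks did not overlap in that direction. GREM1 stood at 4.53, 4.03 and 4.46 FPKM in DMSO and 27.8, 30.5 and 27.7 in CSC at 2 weeks (log2 change 2.59 ± 0.11), and PDE3A at 14.8, 14.9 and 12.7 against 1.40, 1.84 and 1.40 (-2.84 ± 0.19). Both changes were larger in size than at 48 hours, as were 7 of the 15 rises and 13 of the 28 falls. TIPARP stood at 12.9, 11.1 and 11.5 against 41.3, 47.0 and 51.1 (1.93 ± 0.13), and NR4A1 at 6.85, 5.75 and 5.89 against 3.18, 2.30 and 3.08 (-1.0 ± 0.17).

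The difference of the CSC effects, 48 hours minus 2 weeks, was called for 5 genes (0.0412%), 4 higher (0.0330%) and 1 lower (0.00824%), while 829 had an unadjusted p under 0.05. CCL2 was the single gene of the 43 called in opposite directions: it stood at 5.38, 7.20 and 4.42 in DMSO and 3.03, 2.20 and 2.09 in CSC at 2 weeks (-1.06 ± 0.26, adjusted p = 0.0343), and the difference was 2.89 ± 0.39 (adjusted p = 0.0219). RTN4RL2 fell at both times and by more at 2 weeks, with a difference of 1.18 ± 0.18 (adjusted p = 0.0383). CEACAM6, a carcinoembryonic antigen relative of airway epithelium, stood at 7.64 and 6.93 against 17.6, 7.48 and 9.71 at 48 hours, where the groups overlapped, and at 29.7, 30.1 and 26.1 against 5.46, 7.57 and 4.95 at 2 weeks, a difference of 2.73 ± 0.36 (adjusted p = 0.0219). GABRE, a subunit of the GABA-A receptor, stood at 7.29 and 7.87 against 6.83, 5.88 and 6.47 at 48 hours and at 11.2, 12 and 14.4 against 3.33, 4.41 and 4.18 at 2 weeks, a difference of 1.31 ± 0.19 (adjusted p = 0.0336). SNAR-E, the 1 lower call, was listed at 0 in all 2-week libraries.

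**Figure D5:**
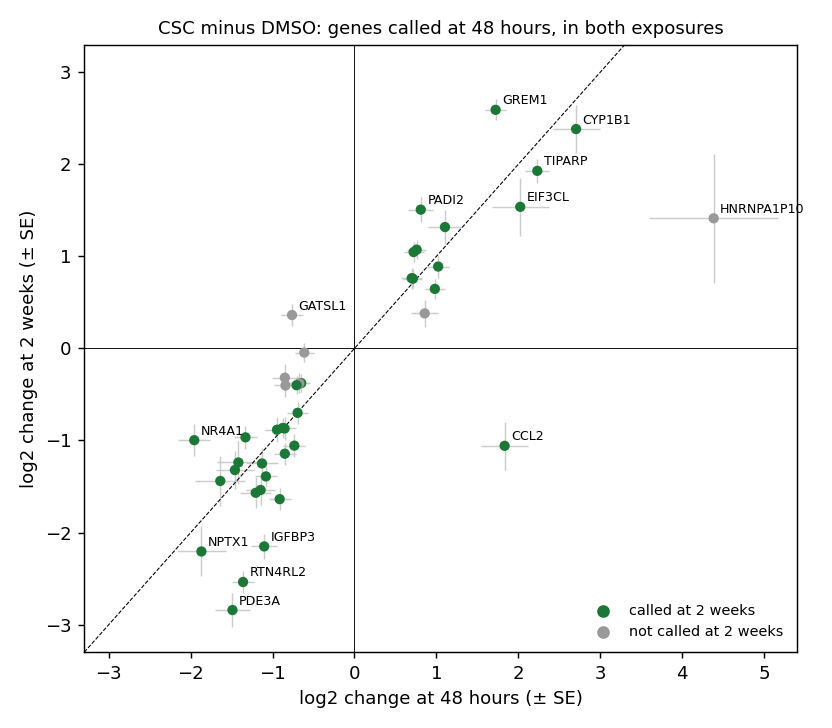
Log2 change, CSC minus DMSO, at 48 hours (x axis) and at 2 weeks (y axis), each ± SE from the fit, for the genes called at 48 hours apart from SNAR-E; green points were also called at 2 weeks, and the dashed line marks equal changes. Most points lie in the 2 quadrants of equal sign, with CCL2 called in opposite directions and GATSL1 of opposite sign but not called at 2 weeks.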

How the data were processed

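RNA was measured in 11 libraries of A549 cells. Per the labels' protocols, ribosomal RNA was depleted with a Ribo-Zero Gold kit and reads from a HiSeq2000 were aligned to hg19 with TopHat2 2.0.9 through BaseSpace, and the submitters' processing notes also list CASAVA 1.7.1a5. For the quantifier, annotation, strand setting and scaling, the sources used here give nothing. The authors deposited FPKM values with bounds in 25275 lines per library, which hold 23609 gene symbols. FPKM of the 548 symbols at several loci were summed, and 1 gene marked as a failed estimate in some libraries was left out. Values are not counts and depth is unknown.

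Groups came from the titles. limma 3.58.1 in R 4.3.3 (lmFit, contrasts.fit, eBayes with a mean-variance trend) was run on log2(FPKM + 0.5) of the FPKM as deposited, with all 11 libraries in 1 fit of 4 groups, because the DMSO group has 2 libraries. Genes were tested where 2 or more of the 5 libraries of 48 hours reached an FPKM of 1. P-values were adjusted by Benjamini-Hochberg over the 12135 genes, and genes with an adjusted p under 0.05 were called. The procedure was tested on simulated data with independent noise, equal in all libraries for a gene, and no library that stood apart. It recovered 32.8% of 67 seeded 1.5-fold changes, 82.1% of 67 2-fold changes and 100% of 65 4-fold changes, with 5 false calls. Changes were seeded only in genes above a minimum mean level, so recovery in the most weakly expressed genes tested was not simulated. Tables were made with Python 3.11.15, pandas 2.3.3 and numpy 2.4.6.

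Named were the called genes, up to the 20 largest each way; the AHR genes CYP1A1, CYP1B1, AHRR, TIPARP and AHR, with NQO1 and HMOX1; cell type markers; up to 4 members per list with the smallest p; the 10 largest changes each way that missed the threshold with separate groups and a mean FPKM of at least 5; and the called differences. Symbols starting with SNOR, RNU, MIR, SCARNA, RNA5S, RNY or RN7S were kept out. DDIT4, HSPA8, CXCL5 and IL18 lie outside these rules and are named after their values were seen. The members and lists were chosen with earlier results of these data known, so lists are described by counts and medians. Promoters were matched by symbol to RefSeq windows for 8824 of the 12135 tested and 30 of the 43 called genes. Pseudocounts, filters, scalings, fits, thresholds, a replicate block and each library left out were varied.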

Additional observations from a re-analysis of the deposited data

Results flagged for a closer look

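The effect of CSC differed between 48 hours and 2 weeks, by the test of the difference itself in limma (Benjamini-Hochberg), for 4 genes with a higher and 1 with a lower effect at 48 hours. The log2 difference of the effects, 48 hours minus 2 weeks, was 2.89 for CCL2, 2.73 for CEACAM6, 1.31 for GABRE and 1.18 for RTN4RL2. For SNAR-E the mean FPKM of DMSO at 48 hours was 21.5, and each of the other 9 libraries lists it at 0. No group of this comparison has more than 3 libraries, so single libraries were not tested as outliers within a group.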

How the results depend on the processing

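The number of genes called higher (15) and lower (28) at 48 hours moved by over 1.5 times under several settings, and the cause was not tested. Median-of-ratios scaling gave 25 and 46, quantile normalization 35 and 53, a common sum 23 higher, no filter 13 lower, only the 5 libraries of 48 hours, where fewer samples give the spread, 2 and 1, and library weights 69 and 161. The weights' estimation stopped before its convergence tolerance was met. An adjusted p under 0.01 left 5 and 8, and one under 0.1 gave 28 and 63. Leaving out 1 library gave 5 to 22 higher and 6 to 81 lower. The called list members (12) numbered 19 under median-of-ratios, 22 under quantile, 44 under library weights and 2 with only the 5 libraries, and 6 to 25 with 1 library left out. The genes called in the same direction at 2 weeks (34) numbered 57, 63 and 186 under median-of-ratios, quantile and library weights and 18 with no filter, and 10 to 83 with 1 library left out. The called differences between the durations (4 higher, 1 lower) were 0 higher with no filter, 2 higher with no mean-variance trend, 2 lower with a filter at an FPKM of 5 or robust estimation, and 36 and 50 with library weights, and with 1 library left out 0 to 5 higher and 0 to 8 lower.

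With the replicate number as a block, 13 genes were higher and 35 lower, of which 13 and 24 were among the calls without the block, and 3 differences were lower. Same-numbered DMSO and CSC libraries of 48 hours correlated in their deviations from the group means at 0.25 for both pairs. The deviations of 2 DMSO libraries mirror each other, so DMSO replicate 2 with CSC replicate 3, and 3 with 2, gave -0.25. The 3 same-numbered pairs of 2 weeks correlated at 0.23, -0.02 and 0.01. The numbers are not taken to pair the samples, and whether same-numbered libraries of 48 hours share a batch was not tested.

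Of 1026 values of the 43 called genes over these settings 0 reversed, 766 were past the threshold and 260 short of it. Named genes that were not called are not in this count. Of 984 list medians 25 moved by more than 1 SD between replicates. The unknown depth limits what can be said of weakly expressed genes such as CYP1A1, and the DMSO group of 2 libraries limits every call.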

Other observations

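Other lists held few or no calls at 48 hours. Of 75 cytosolic ribosomal protein genes 65 had a positive and 10 a negative change, with a median of 0.07 (0.12 without CSC replicate 3), library medians of 0.15, 0.10 and -0.06 in CSC replicates 1, 2 and 3, and 0 calls by limma or genes at an unadjusted p under 0.05. Of 53 replication-dependent histone genes 46 were positive and 7 negative, with a median of 0.15 (0.09 without CSC replicate 3) and library medians of 0.07, 0.14 and 0.36, with 0 calls and 1 gene at an unadjusted p under 0.05. HIST4H4 stood at 175 and 159 FPKM in DMSO and 190, 212 and 295 in CSC (log2 change 0.46 ± 0.20, adjusted p = 0.557). Of 27 actin cytoskeleton genes 4 were positive and 23 negative, with a median of -0.17 (-0.07 without CSC replicate 3) and library medians of -0.11, -0.05 and -0.43, with 0 calls and 2 genes at an unadjusted p under 0.05. Of 12 EGF receptor family genes and ligands TGFA alone was called, a rise, against 0.124% of all genes called higher. Of the 12 changes 5 were positive and 7 negative, and the median was -0.04 (-0.13 without CSC replicate 3). EREG, another ligand, stood at 36.5 and 31.5 against 43.3, 53.5 and 86.5 (0.78 ± 0.23, adjusted p = 0.247). KRT8, a keratin of simple epithelia, stood at 951 and 1095 against 756, 573 and 634 (-0.65 ± 0.18, adjusted p = 0.187), with no overlap between the groups.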
